A study of Aspergillus niger with 27 samples.

Results

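A set of 224 of the 11846 gene models of the filamentous fungus Aspergillus niger was described here, chosen because their counts were highest over wheat bran compartment 9. Colonies had been grown in pie-plates, dishes with physically separate wedges of liquid medium under a perforated polycarbonate membrane that passes proteins and metabolites but holds back hyphae. Each of 3 plates (A, B and C) carried 1 colony, started at the centre of the plate, and gave 9 libraries: compartments 1 to 3 held glucose, 4 to 6 sugar beet pulp (SBP) and 7 to 9 wheat bran (WB). All 27 libraries were made from mycelium cut from its compartment, so the 3 libraries of a compartment come from 3 colonies, and the 9 libraries of a plate share 1. The labels name no strain, culture age or position of a compartment number on the plate, and say that in each substrate 1 of the 3 compartments has the same carbon source on both sides.

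A. niger is a saprotroph that feeds by secreting enzymes into plant material and taking up the released sugars. A colony is a connected network of hyphae that differ with age and position, and water, nutrients and signals can move through it between places with different food. Wheat bran offers arabinoxylan and starch, sugar beet pulp offers pectin, cellulose and arabinan, and glucose can be taken up directly. The deposited table names genes by numbered IDs beginning with NRRL3 and pairs none with a gene name or function. The gene name table at hand lists 0 of the 11846 IDs, so the members are described by their values alone, and no role is given to any of them.

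Members were chosen on normalised counts, that is, counts divided by a median-of-ratios size factor over all 27 libraries and averaged over the 3 plates. The mean in compartment 9 had to be at least 100 and at least 3 times the largest mean of compartments 1 to 8, which 249 genes met. From these, 25 were left out: 18 genes had a compartment 4 mean at least 3 times that of compartment 6, 2 had both compartment 7 and 8 at least 4 times the largest of 1 to 6, and 8 were among the 20 largest counts of some library, with 3 genes meeting more than 1 of these. The height of compartment 9 over the others is therefore the criterion of choice and is given as a description, with no test. The members closest to the 3-fold threshold were NRRL3_10236 and NRRL3_545, both at a ratio of 3.00. Just outside it stood NRRL3_2681 at 2.99 and NRRL3_7979 at 2.98, and 559 genes with a mean of 100 or more in compartment 9 lay from 2 to under 3.

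**Figure D1:**
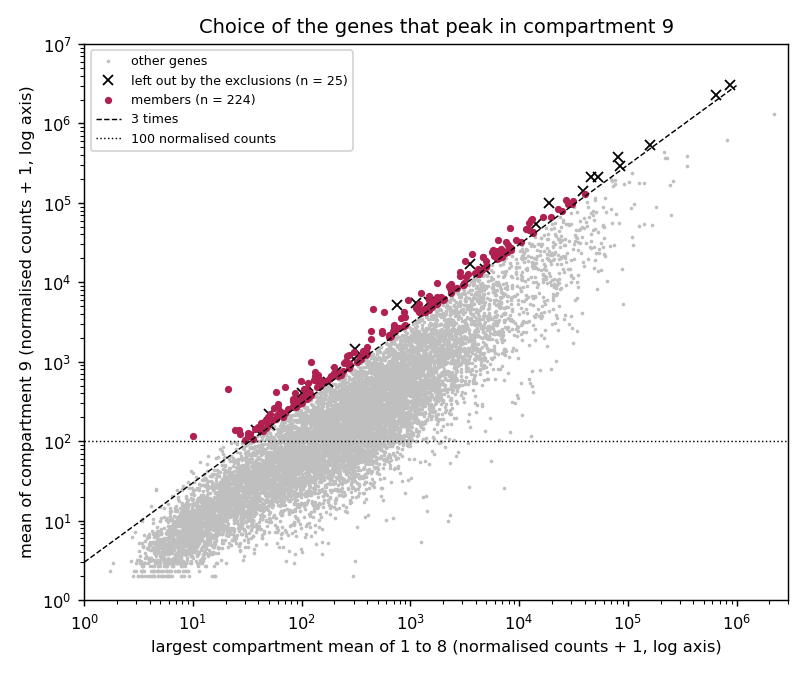
Mean normalised count of compartment 9 against the largest mean of compartments 1 to 8 for each gene, both plus 1 and on log axes. Red points are the 224 members, crosses the 25 genes left out by the exclusions, grey points other genes, and the lines mark 3 times and 100 normalised counts. Members lie along the upper edge of the cloud at all levels, most of them close to the 3-fold line.

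The compartment 9 libraries also differed from the others as libraries. They held 8006891 to 11847598 counts, against 12078576 to 24501824 in the other 24, and 8103 to 9161 genes with 10 or more counts, against 9340 to 10771. Their 20 most abundant genes took 35.1% to 42.9% of the counts, against 14.7% to 40.1% elsewhere. The size factor, expressed per 10000000 counts of the library, was 0.284 to 0.401 in compartment 9 and 0.453 to 1.02 in the others, so that size factors raise compartment 9 values well above what scaling by total counts gives. No molecular identifiers are named, so repeated copies of a molecule may be counted, and counting error is only the least error of a count. Nothing but the plate labels shows that cultures were separate. With the plate as a block, p-values rest on how differences between compartments vary over these plates. Fewer cells that express a gene and less RNA per cell cannot be told apart in such samples.

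Members were mostly well expressed everywhere and several-fold higher in compartment 9. Over the 224 members, the median of the compartment means was 396, 326 and 326 normalised counts in glucose compartments 1, 2 and 3. It was 243, 192 and 186 in sugar beet pulp compartments 4, 5 and 6. In wheat bran it was 409 in compartment 7, 634 in 8 and 2434 in 9. The means in compartment 9 ran from 103 to 129565, with 136 members at 1000 or more and 55 at 10000 or more. The largest mean of compartments 1 to 8 had a median of 641, close to the 679 of all 6498 genes with a mean of 100 or more in compartment 9. Only NRRL3_1355 stayed under 10 in compartments 1 to 8, and 47 members stayed under 100 there.

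The ratio of compartment 9 to the largest mean of 1 to 8 had a median of 3.56 over members and quartiles of 3.22 and 4.16. It lay from 3 to under 3.5 for 106 members, from 3.5 to under 4 for 51, from 4 to under 5 for 47, from 5 to under 10 for 17, and at 10 or more for 3. With total counts in place of size factors the median ratio was 2.21, and 27 members reached 3, although all 224 stayed above 1. The lowest ratio under total counts was 1.16, that of NRRL3_10771. For all 6498 genes at 100 or more in compartment 9 the median ratio was 0.790 with size factors and 0.355 with total counts. The 3-fold height thus rests on the size factors for most members, while the peak itself was present under both scalings.

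Read as plain shares of each library, with no size factor, the members together took 7.38%, 8.31% and 8.51% of the counts in compartment 9 on plates A, B and C. In compartment 8 they took 2.07%, 4.31% and 3.77%, and in compartment 7 they took 1.99%, 3.16% and 1.78%. The glucose libraries lay between 1.48% and 3.08% and the sugar beet pulp libraries between 1.31% and 2.23%. The 3 libraries of compartment 9 stood above all the other 24, and compartment 8 of plate B came next. The 25 genes left out by the exclusions took more than all members together, 23.9% ± 2.73 of the counts in compartment 9 (SD, n = 3 plates).

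**Figure D2:**
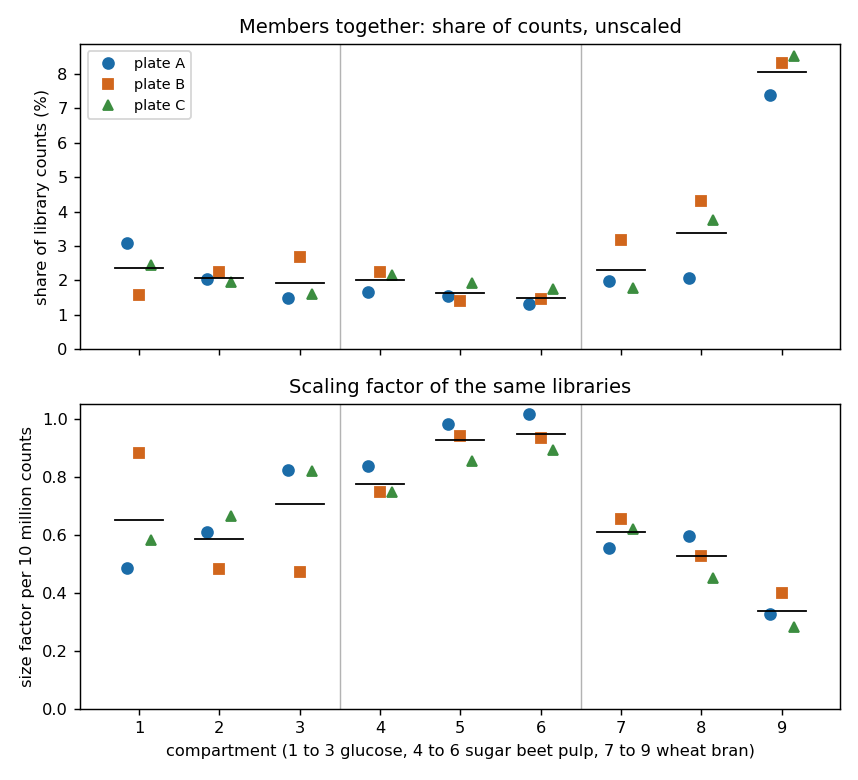
Top: share of all counts of a library taken by the 224 members together, in percent, by compartment. Bottom: median-of-ratios size factor of the same libraries per 10000000 counts; points are plates A, B and C and bars are means over the 3 plates. Compartment 9 has the highest shares, 7.38% to 8.51%, and the lowest size factors, 0.284 to 0.401, and glucose compartments 1 and 3 change places on plate B in both panels.

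The members with the highest level show the common form of the profile. NRRL3_7841 had 91707, 121315 and 175672 normalised counts in compartment 9 on plates A, B and C, against 16449, 57091 and 48515 in compartment 8 and 20086, 31712 and 14534 in compartment 7. Its sugar beet pulp libraries ran from 5790 to 29140 and its glucose libraries from 16568 to 56325. The compartment 9 libraries did not overlap with the others, the lowest of them standing at 91707 and the highest other library, compartment 8 of plate B, at 57091. NRRL3_9782 had 84346, 86802 and 151173 in compartment 9 and at most 34370 elsewhere, with means of 3457 ± 1030 in compartment 6, 12509 ± 5035 in 7 and 26929 ± 12658 in 8 (SD, n = 3 plates). Both genes were lowest in compartment 6, and their ratios of 3.18 and 3.99 became 1.99 and 2.57 with total counts.

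Wheat bran compartment 8 was second highest for 184 of the 224 members. Of the 6498 genes with a mean of 100 or more in compartment 9, 27.9% had their largest mean of compartments 1 to 8 there. Compartment 7 was second for 12 members, glucose compartments 1, 2 and 3 for 10, 9 and 6, sugar beet pulp compartment 4 for 2, 5 for 0 and 6 for 1. In the other direction, 193 members had their lowest mean in a sugar beet pulp compartment, 141 of them in compartment 6, against 40.6% and 27.8% of the 6498 genes.

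The highest members of the groups with another second compartment differed in how level they were outside compartment 9. NRRL3_10488, second in glucose compartment 1, had 3501, 6232 and 6201 normalised counts in compartment 9 and means of 1757 ± 799, 1724 ± 433 and 1256 ± 475 in glucose compartments 1, 2 and 3. NRRL3_5324, second in glucose compartment 2 at 1756 ± 621, had 6050, 8387 and 15396 in compartment 9, a ratio of 5.66. NRRL3_9677 was nearly level outside compartment 9, with means from 303 ± 116 in compartment 6 to 397 ± 68.8 in compartment 3, and had 1020, 1231 and 1587 in compartment 9 (SD, n = 3 plates). These neighbouring means differ by less than the spread between plates, so the identity of the second compartment carries little for such genes. NRRL3_10359, second in sugar beet pulp compartment 4 at 146 ± 31.4, had 540, 405 and 754 in compartment 9. NRRL3_10771, second in compartment 6 at 119 ± 47.5, had 257, 524 and 359. With total counts the ratios of NRRL3_9677, NRRL3_10359 and NRRL3_10771 fell to 1.39, 1.62 and 1.16.

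**Figure D3:**
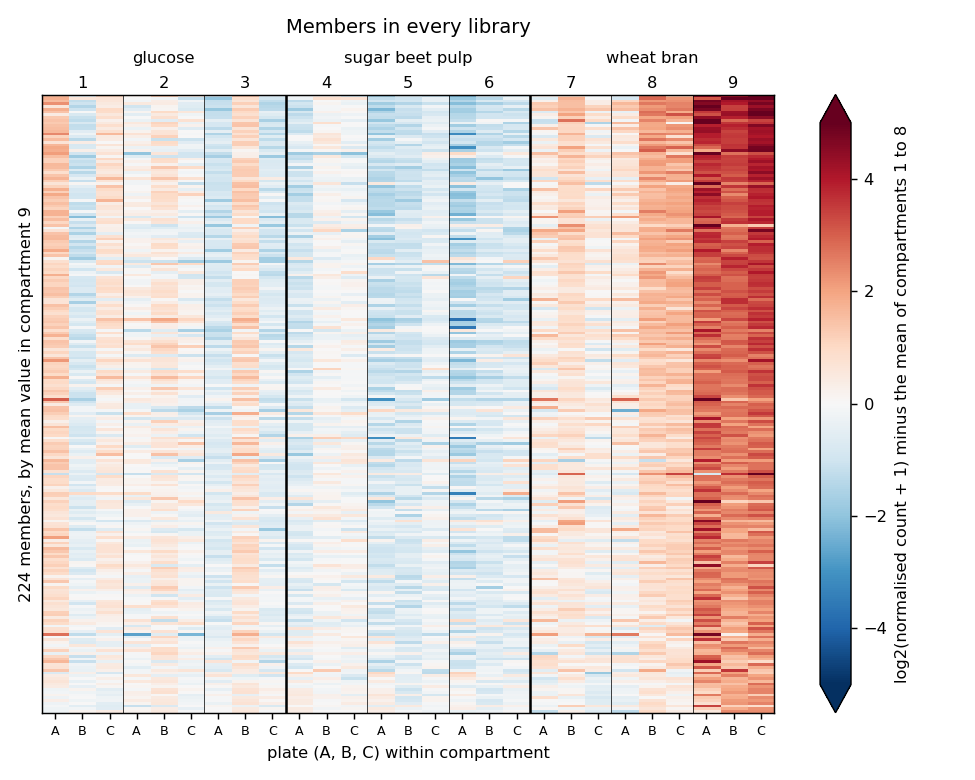
Log2 of normalised count plus 1 for each of the 224 members (rows, ordered by the mean of the values drawn for compartment 9) in each of the 27 libraries (columns, plates A, B and C within compartments 1 to 9), minus the member's mean over compartments 1 to 8. Red is above that mean and blue below. Compartment 9 is red on all plates for most rows, compartment 8 is paler red on plates B and C, sugar beet pulp compartments 5 and 6 are blue, and glucose compartments 1 and 3 swap on plate B.

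Members differed in how evenly the 3 colonies showed the peak. Compartment 9 stood above the largest of compartments 1 to 8 on all 3 plates for 215 of 224 members, and the plate on which it did not was A for 2, B for 6 and C for 1. For 204 members the lowest compartment 9 library exceeded the highest of the other 24, which held for 9.91% of the 10990 genes tested. With total counts it held for 147 members, against 2.57% of genes tested. Within single plates the 3-fold height was less regular. It was reached on all 3 plates by 19 members, where 0.2% of genes tested did so, on 2 plates by 84 and on 1 plate by 111. The median ratio was 3.61 on plate A, 2.47 on plate B and 3.28 on plate C. As the choice used these libraries, nothing is read from these shares.

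The coefficient of variation over plates in compartment 9 ran from 2.09% to 164%, with a median of 32.8%, against 27.1% for the 6498 genes at 100 or more. The steadiest members were NRRL3_9592, with 1257, 1297 and 1308 normalised counts in compartment 9, and NRRL3_6329, with 12930, 12458 and 13023. Outside compartment 9 both varied more, and NRRL3_9592 had 376 ± 234 in compartment 7, with 646 in its highest library. At the other end, 12 members had a coefficient above 100%, and 11 of these were highest on plate A. For 20 members the highest plate in compartment 9 was at 3 or more times the next plate, 17 of them on plate A, and 3.66% of the 6498 genes met the same condition.

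For these uneven members 1 library sets the value. NRRL3_3009, which has the highest ratio of all members at 22.7, had 1313 normalised counts in compartment 9 of plate A, 28.1 on plate B and 19.9 on plate C, against at most 41.5 in any other library. These were 511, 9 and 5 counts before scaling. Without plate A its ratio was 0.868, so that compartment 9 no longer stood highest. NRRL3_59 had 11656, 549 and 670 normalised counts in compartment 9 and 1130 in compartment 7 of plate B, and its ratio of 7.59 became 0.795 without plate A. NRRL3_1355 was higher in compartment 9 on each plate, with 262, 34.3 and 47.8 normalised counts against at most 17.0 elsewhere, but the size of its ratio of 12.7 also came mainly from plate A. The opposite case was NRRL3_11026, with 342 in compartment 9 of plate A, no higher than its other libraries there, and 7501 and 20743 on plates B and C.

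**Figure D4:**
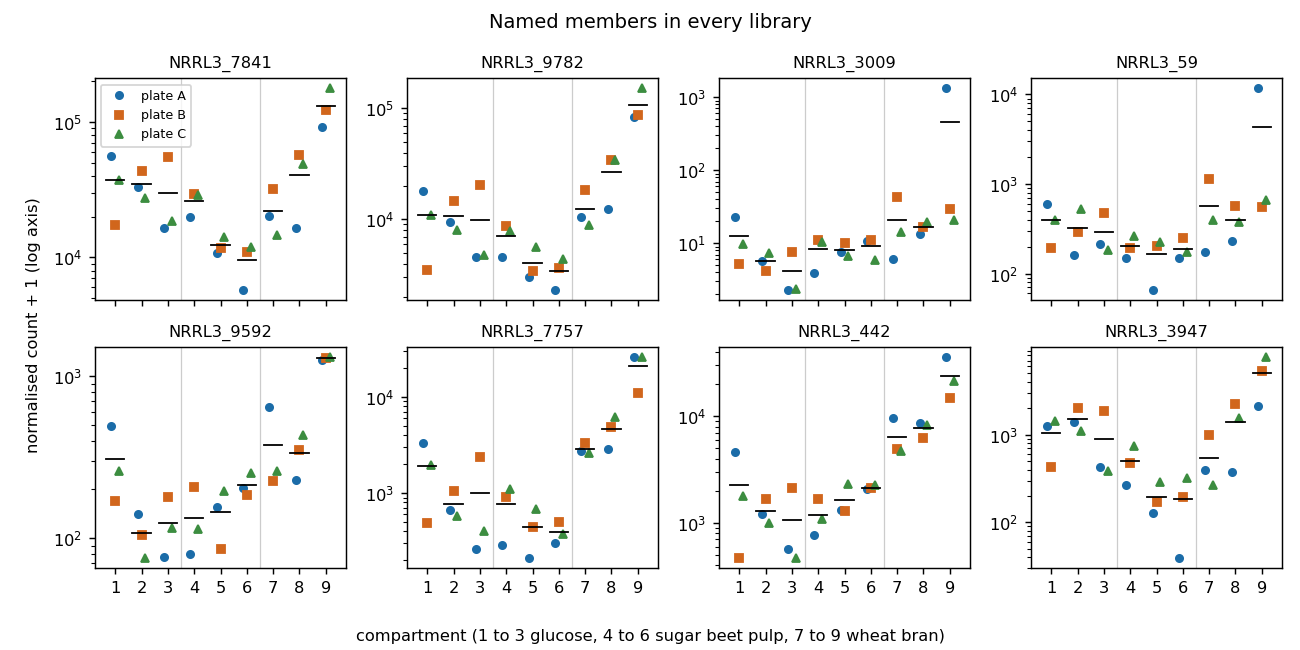
Normalised count plus 1, on log axes, of 8 named members in each library by compartment; points are plates A, B and C and bars are means over the 3 plates. NRRL3_3009 and NRRL3_59 are high in compartment 9 of plate A alone, NRRL3_9592 is nearly equal on all plates there, and NRRL3_7757 and NRRL3_442 are high in compartments 7 and 8 as well.

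As a check on plates the choice did not use, the same rule was applied to 2 plates at a time and read in the third. Plates B and C chose 135 genes, 104 of them members. On plate A, compartment 9 exceeded the largest of compartments 1 to 8 for 124 of these 135 genes and was at least 3 times as high for 58 (43.0%). Plates A and C chose 308 genes, of which 293 were highest in compartment 9 on plate B and 39 (12.7%) were 3-fold higher. Plates A and B chose 263 genes, of which 251 were highest in compartment 9 on plate C and 97 (36.9%) were 3-fold higher. Among all genes with 100 or more normalised counts in compartment 9 of the plate read, 32.2%, 36.7% and 37.1% were highest there on plates A, B and C, and 5.23%, 1.30% and 4.28% were 3-fold higher. The peak, read with size factors only, thus recurred in nearly all chosen genes on the plate left out. The 3-fold height did so in a minority, least often on plate B. Total counts were not tried for this check. With 1 plate there is no test. The rule chose 69 members under each of the 3 pairs of plates.

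Outside compartment 9, members were higher on wheat bran than on sugar beet pulp. The rule does not order compartments 1 to 8 except through its exclusions, but its 3-fold threshold limits their means relative to compartment 9. Counts were summed per plate over compartments 7 and 8, over 4 to 6 and over 1 to 3, leaving compartment 9 out, and tested with edgeR's quasi-likelihood test with the plate as a block. From sugar beet pulp to wheat bran 7 and 8, 167 of 224 members rose and 0 fell at an adjusted p under 0.05 by the Benjamini-Hochberg method over all 11506 genes, of which 18.3% were higher and 18.8% lower. The median log2 fold change was 1.24 over members (quartiles 0.79 and 1.67) and -0.00037 over all genes. With total counts, where the median of all genes was -0.60, 107 members (47.8%) were higher and 2 lower, against 7.47% and 44.4% of all genes. The exclusions bear on these counts in both directions, since 2 genes were left out for height in 7 and 8 and 18 for height in compartment 4 over 6. The 3-fold threshold bears on them too, mostly through compartment 8, which was second highest for 184 members.

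Among members called with the same direction on all 3 plates, NRRL3_7757 and NRRL3_1795 had the largest fitted log2 fold changes from sugar beet pulp to wheat bran 7 and 8, with others close behind. NRRL3_7757 had 19.0, 40.1 and 46.9 CPM (count relative to the TMM-scaled library total) on sugar beet pulp on plates A, B and C and 196, 268 and 277 on wheat bran 7 and 8. The wheat bran sums lay above the sugar beet pulp sums with no overlap, and the log2 fold change was 2.85 (SE 0.30, edgeR quasi-likelihood adjusted p = 3.0e-04). NRRL3_1795 had 29.7, 41.0 and 41.5 CPM on sugar beet pulp and 222, 337 and 241 on wheat bran 7 and 8, a log2 fold change of 2.81 (SE 0.34, edgeR adjusted p = 5.4e-04). In compartment 9 these genes had 20792 ± 8553 and 25303 ± 6796 normalised counts, against 4640 ± 1659 and 5726 ± 1923 in compartment 8 (SD, n = 3 plates).

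Fewer members separated wheat bran 7 and 8 from glucose. Here 69 of 224 rose and 0 fell, where 12.0% of all 11506 genes were higher and 13.5% lower, with a median log2 fold change of 0.59 over members and 0.0012 over all genes. Without plate A, 115 members (51.3%) were higher, against 13.2% of all genes, and without plate B 29 (12.9%), against 10.8%. Without plate C it was 11 (4.91%), against 3.52%, so that without B or C the members' share lay near that of all genes. With total counts 43 members (19.2%) were higher, against 8.71% of all genes. By plate, the median log2 difference of members was -0.021 on plate A, 0.68 on plate B and 0.83 on plate C, so plate A did not show it. The glucose sums of NRRL3_442 were 119, 74.3 and 72.2 CPM, its sugar beet pulp sums 97.7, 119 and 139 CPM, and its sums over wheat bran 7 and 8 were 645, 372 and 417 CPM. These wheat bran sums were above all others, and relative to glucose the log2 change came to 2.43 (SE 0.28, adjusted p = 4.8e-04 by edgeR's quasi-likelihood test). NRRL3_11026 went from 23.97, 29.8 and 22.2 CPM in the glucose sums to 24.4, 249.5 and 193.9 CPM over wheat bran 7 and 8, a log2 fold change of 2.33 (SE 0.56, edgeR adjusted p = 0.0141). The groups overlap, since the wheat bran sum of plate A lay below the glucose sum of plate B, and the call was lost without plate B (adjusted p = 0.0560) and without plate C (0.144).

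Between sugar beet pulp and glucose, 35 of 224 members fell and 0 rose, where 3.62% of all 11506 genes were lower and 2.17% higher on sugar beet pulp. The median log2 fold change was -0.60 over members and 0.034 over all genes. Without plate A, 3 members (1.34%) were lower, against 1.63% of all genes, and without plate C 2 members (0.893%), against 0.520%, so that the excess over all genes was not seen or small there. Without plate B, 25 members (11.2%) were lower, against 2.58% of all genes. DESeq2 called 69 members lower and 1 higher, with 5.60% of all genes lower and 4.07% higher. With total counts, which moved the median of all genes to 0.43, 16 members (7.14%) were lower and 4 (1.79%) higher, against 1.85% and 13.7% of all genes. In NRRL3_3947 the glucose sums were 60.9, 73.4 and 64.1 CPM and the sugar beet pulp sums 10.8, 17.3 and 28.4 CPM, which gave a log2 change of -1.91 (SE 0.36, adjusted p = 0.0156 by edgeR's quasi-likelihood test). In NRRL3_7021 they were 11.5, 14.2 and 15.1 CPM and 3.85, 3.52 and 4.12 CPM, which gave -1.81 (SE 0.23, edgeR adjusted p = 0.0050). Neither pair of groups overlaps. The call of NRRL3_3947 was lost without plate A (adjusted p = 0.0758) and that of NRRL3_7021 without plate C (0.0548). The 3 comparisons of substrates share their sums pairwise and are not independent of each other.

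Within the sections, single members could not be separated. In simulated data the test found 15% of 2-fold changes between 7 and 8, so 0 calls do not show that members were level. The simulation had no plate effect and raised no genes of low level, so 15% is not the members' own rate. In compartment 8 the median coefficient of variation over plates was 40.2% for members and 26.9% for the 6498 genes. From compartment 7 to 8, 205 of 224 members had a positive log2 fold change, against 48.1% of all genes. The median was 0.57 over members and -0.019 over all genes. By edgeR's quasi-likelihood test 0 passed, where 0.0% of the 10990 genes did, and DESeq2 called 0. A raw p under 0.05 by edgeR was met by 17 of 224 members and by 620 of the 10990 genes. The median log2 difference from 7 to 8 was 0.045 on plate A, 0.58 on plate B and 1.24 on plate C. On all 3 plates 103 members were higher in 8, against 14.9% of genes tested, and 102 with total counts, against 8.25%. Compartment 8 was the higher of the pair for 118 members on plate A, 197 on plate B and 218 on plate C. Of genes tested, 44.8%, 48.9% and 51.3% were higher there.

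In the sugar beet pulp section no member passed either. The rule had left out 18 genes with a compartment 4 mean at least 3 times that of compartment 6. This limits how far members could fall from 4 to 6, so the 0 calls are not free of the choice. From 5 to 4 the median log2 fold change was 0.44, positive for 198 members and for 51.0% of all genes. On all 3 plates 125 members were higher in 4, against 23.3% of genes tested. With total counts 75 were, against 10.5%. On plate A the median log2 difference was then 0.0038, with 113 members above 0, against 26.8% of genes tested. By edgeR's quasi-likelihood test 0 passed, where 0.127% of genes did. DESeq2 called 0 members, and 42 of the 10990 genes. A raw p under 0.05 by edgeR was met by 11 of 224 members and by 576 of the 10990 genes. From 6 to 5 the median was 0.15, with 0 calls by edgeR, where 0.0% of genes passed. DESeq2 called 0 members, and 0 of the 10990 genes. A raw p under 0.05 by edgeR was met there by 1 member and by 142 of the 10990 genes.

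The glucose section had no common order of members over the plates. On plate A, 213 of 224 members were higher in compartment 1 than in the mean of 2 and 3, with a median log2 difference of 1.30. Plate C had the same direction, with 193 members and a median of 0.73. On plate B only 16 members were higher in compartment 1, and the median was -1.34. Of genes tested, 50.2%, 50.5% and 49.0% were higher in compartment 1 on plates A, B and C. Over the 3 plates, 0 members passed by edgeR's quasi-likelihood test, where 0.182% of genes did. DESeq2 called 2 members higher, against 1.02% of genes. A raw p under 0.05 by edgeR was met by 28 of 224 members and by 1076 of the 10990 genes. Without plate B, 55 members (24.6%) were higher and 0 lower in compartment 1, against 3.17% and 1.39% of all genes, while without plate A the median log2 fold change turned to -0.25. For compartment 2 over 3, plates A and C had medians of 0.73 and 0.55 and plate B had -0.34. No member passed by edgeR's quasi-likelihood test, where 0.0091% of genes did. DESeq2 called 0 members, and 3 of the 10990 genes. A raw p under 0.05 by edgeR was met there by 1 member and by 422 of the 10990 genes. With total counts plate B still ran opposite to the others, with a median of -0.46 for 1 over the mean of 2 and 3, against 0.81 on plate A and 0.41 on plate C.

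**Figure D5:**
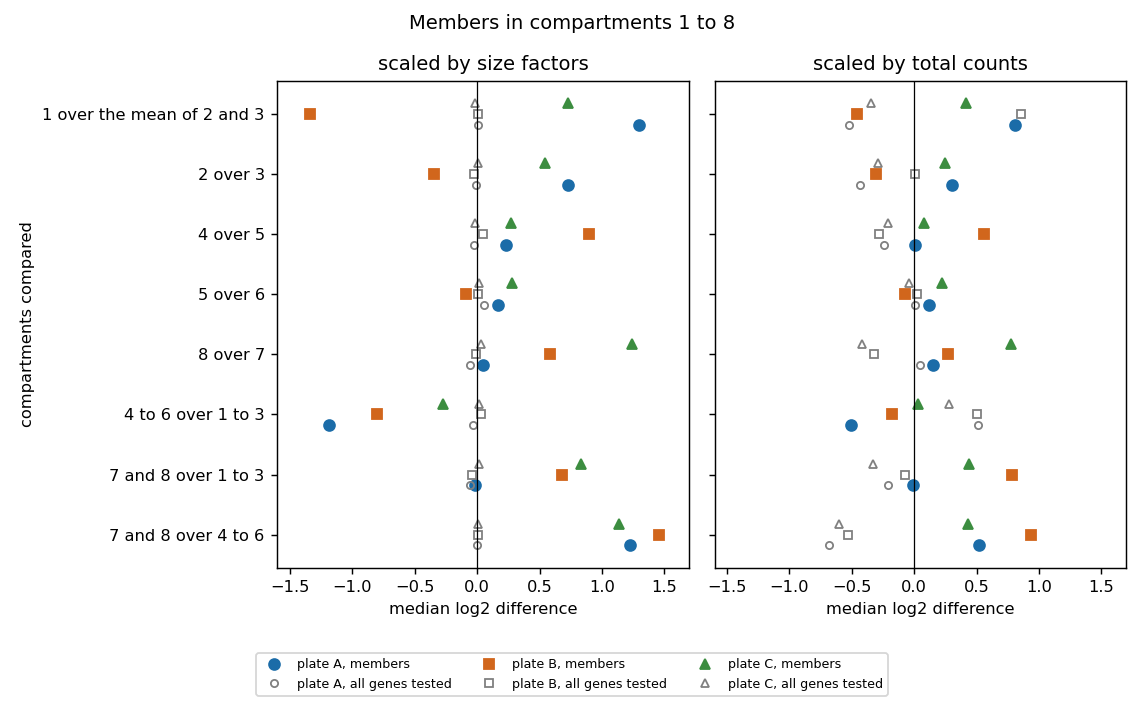
Median log2 difference (pseudocount 1) over the 224 members between compartments or groups of compartments, by plate, scaled by size factors (left) or total counts (right). Filled points are members and open points all 10990 genes tested; differences are named by compartment numbers. Members lie above 0 on all plates for compartments 7 and 8 over 4 to 6 under both scalings, and plate B lies opposite to A and C for the glucose compartments.

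The members' shares moved with the make-up of the library as a whole, also where compartment 9 was not involved. In 8 of the 9 combinations of plate and substrate, the 3 libraries ranked by the members' share of counts stood in exactly the reverse order of their size factors per count. These included every combination of glucose or sugar beet pulp. The wheat bran combinations hold compartment 9, whose height chose the members, so nothing is read from them. No such ranking was made for other genes, so the order is not shown to be particular to the members. On plate A the 25 genes left out had the reverse order too, with 14.7%, 9.24% and 3.94% in glucose compartments 1, 2 and 3. On plate B they took 3.48%, 12.4% and 10.8%, not exactly the reverse order. On plate B the members took 1.56%, 2.24% and 2.69% of the counts in glucose compartments 1, 2 and 3, where the size factor per 10000000 counts was 0.883, 0.484 and 0.472. On plate A they took 3.08%, 2.03% and 1.48%, and the size factor was 0.488, 0.611 and 0.825. The exception was wheat bran on plate A, where compartments 7 and 8 had 1.99% and 2.07% with size factors of 0.555 and 0.597. The part of library make-up in the members' differences was not tested.

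The IDs of the members were spread over the numbering, with 15 to 29 members in each of 10 equal stretches. There were 8 pairs of consecutive IDs and no longer run. Of the IDs next to a member, 3.57% were members, against 1.89% of all genes. The 276 neighbouring non-members with a mean of 100 or more in compartment 9 had a median ratio of 0.864 to the largest of compartments 1 to 8, close to the 0.790 of all 6498 such genes. The first pair, NRRL3_656 and NRRL3_657, differed widely in level, with 105491 ± 37216 and 330.4 ± 52.3 normalised counts in compartment 9 (SD, n = 3 plates). NRRL3_656 was second highest in compartment 8, at 30965 ± 15682, and NRRL3_657 in glucose compartment 1, at 84.4 ± 32.0. Whether numbering follows position on a chromosome is not given in the sources used here.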

How the data were processed

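The deposited table holds raw counts (whole numbers) of 11846 gene models in 27 libraries. The submitters' processing notes name HTSeq and DESeq2 with neither version nor role. Aligner, genome build, annotation and use of strand were not given in the sources used here, which leaves counts uncertain where genes overlap or have near copies. A SMARTer kit and an Ion Proton sequencer were used, per the labels' protocols. Libraries held 8006891 to 24501824 counts.

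Members were chosen from the deposited counts as given in the report, with size factors from the 10543 genes counted in every library. Members, lists and tests were chosen with earlier results of these data known. Tests used edgeR 4.0.16 in R 4.3.3 (quasi-likelihood F-test, TMM, filterByExpr, plate as block, two-sided, Benjamini-Hochberg, threshold 0.05): a fit of 27 libraries in 9 groups with 16 residual degrees of freedom, and a fit of 9 sums with 4. The SE of a log2 fold change was its size over the square root of the F statistic. Tests were tried on simulated data, with 200 genes raised, none of low level, and no plate effect. They found 15% of 2-fold and 82% of 4-fold changes for compartment 7 against 8. For the sums of wheat bran 7 and 8 against glucose they found 31% and 96%. The plate pairs libraries because the labels place them in 1 colony; in 108 pairs of libraries of 1 plate, deviations from the compartment means had a mean correlation of 0.126, with 60 pairs over 0.1. DESeq2 was 1.42.0. Genes named are those highest in level or ratio, steadiest or least steady, at the threshold, leading each second compartment, in the first pair of consecutive IDs, and up to 2 in each direction per comparison with the same sign on all plates.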

Additional observations from a re-analysis of the deposited data

How the results depend on the processing

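The number of members was 25 with total counts, 758 at 2-fold and 67 at 4-fold, 135 to 308 on leaving out 1 plate, and 168 to 242 with TMM, a level of 50 or 200, another reading of the abundance exclusion, or the median of plates, which shared 129 of its 168 genes with the members. Without 1 plate, 122 to 164 members (54.5% to 73.2%) were called higher on wheat bran 7 and 8 than on sugar beet pulp. Of all genes 8.39% to 15.7% were. For wheat bran 7 and 8 over glucose 11 to 115 members (4.91% to 51.3%) were higher, against 3.52% to 13.2% of all genes. For sugar beet pulp against glucose 2 to 25 (0.893% to 11.2%) were lower, against 0.520% to 2.58%. For glucose 1 against 2 and 3, 0 to 55 (0% to 24.6%) were higher, against 0.0181% to 3.17%. These 2-plate fits rest on few residual degrees of freedom. With total counts, 109, 43 and 20 members were called in either direction for the 3 substrate comparisons. Of these, 107 and 43 were higher and 16 lower, against 7.47%, 8.71% and 1.85% of all genes. The other way, 2, 0 and 4 members were called, against 44.4%, 21% and 13.7% of all genes. With DESeq2, 70 members were called for sugar beet pulp against glucose, 69 lower and 1 higher, against 5.60% and 4.07% of all genes. For glucose 1 against 2 and 3, DESeq2 called 2 members higher, against 1.02% of all genes. The median log2 fold change of members without 1 plate ran from -0.25 to 1.09 for glucose 1 against 2 and 3 and from -0.021 to 0.64 for glucose 2 over 3, the lowest values coming without plate A. Without plate A the ratios of NRRL3_3009 and NRRL3_59 turned to 0.868 and 0.795; the cause was not tested. Without the plate as a block, members called were 163, 68 and 24 for the 3 substrate comparisons, against 167, 69 and 35, and 0 in each section. In the same directions (higher, higher and lower), 17.9%, 11.6% and 3.08% of all genes were called without the block. With no low-count filter, members called were 165, 69 and 34 for the substrate comparisons. Of all genes 17.6%, 11.4% and 3.46% were called in these directions. The fit of the 24 libraries of compartments 1 to 8, run for the comparisons within sections only, called 0 members. Low totals in compartment 9 limit members of low level, such as NRRL3_1355, with 102, 11 and 12 counts there.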
